A study of Mus musculus with 6 samples.

Results

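The liver X receptors and the cholesterol handling genes around them were followed in mouse bone marrow derived dendritic cells. The group holds 9 of the 23398 genes in the table, matched by gene name: Nr1h3, Abca1, Abcg1, Apoe, Mylip, Lpl, Srebf1, Scd2 and Ch25h. The cells were treated for 12 hours with Ca(OH)2 (calcium hydroxide) nanoparticles in 3 libraries or with vehicle in the other 3, and their RNA was sequenced. Cells of both groups were grown in DMEM with serum and antibiotics. The labels give no strain, sex, age or dose, name no growth factor, and do not say whether the 3 libraries of a group came from separate mice or cultures, so p-values measure only the spread between these libraries.

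LXR alpha, the product of Nr1h3, is a nuclear receptor that is activated by oxysterols, the oxidised forms of cholesterol, and binds DNA together with a retinoid X receptor. In macrophages and dendritic cells its targets move cholesterol out of the cell. The pumps ABCA1 and ABCG1 hand it to lipoprotein particles and apolipoprotein E carries it, while IDOL, the product of Mylip, is a ubiquitin ligase that limits the uptake of lipoproteins. Other targets make fatty acids, through the transcription factor SREBP-1 (Srebf1) and the desaturases of the Scd family, or release fatty acids from lipoproteins (lipoprotein lipase, Lpl). Ch25h makes 25-hydroxycholesterol, an oxysterol that can activate LXR and that holds back the SREBP pathway, and it is known as a gene induced by interferons and by microbial products.

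Promoter sequences from RefSeq (GRCm38.p6, 250 bases before to 50 after each start site) were matched for 6 of the 9 genes. LXR and its partner bind a direct repeat with 4 bases between its units. The textbook form is AGGTCA repeated with any 4 bases between. It was not found on either strand in the matched promoters of these 6 genes. It stood in 0.0152% of all 32851 promoters of the same length. The Abca1 promoter holds a variant repeat, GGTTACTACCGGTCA. With its eighth and ninth base left free, this variant was also found before one of the 3 listed start sites of Srebf1, as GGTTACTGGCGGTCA. Only 3 of the 32851 promoters (0.00913%) hold it on either strand, and it was chosen for the search after these promoters had been seen. The 3 include the Abca1 and Srebf1 promoters themselves, and the bases left free are those at which these differ. The low share is thus in part set by that choice. The stretches that hold it are printed because Abca1 and Srebf1 share the repeat and differed in their values. In each the repeat is in capitals and reads on the opposite strand. The Ch25h stretch has in capitals the cAMP response element TGACGTCA, also chosen after the sequence was seen, which 1.79% of promoters hold. A match is a run of letters and no measurement of binding.
Abca1, chr4:53159896-53160045, minus strand: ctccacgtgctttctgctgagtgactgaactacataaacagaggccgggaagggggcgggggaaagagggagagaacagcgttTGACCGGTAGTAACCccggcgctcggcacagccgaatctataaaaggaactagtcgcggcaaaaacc
Srebf1, chr11:60210572-60210721, minus strand: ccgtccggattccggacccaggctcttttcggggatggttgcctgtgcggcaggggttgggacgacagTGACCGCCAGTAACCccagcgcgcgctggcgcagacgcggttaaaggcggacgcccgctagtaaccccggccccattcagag
Ch25h, chr19:34475149-34475298, minus strand: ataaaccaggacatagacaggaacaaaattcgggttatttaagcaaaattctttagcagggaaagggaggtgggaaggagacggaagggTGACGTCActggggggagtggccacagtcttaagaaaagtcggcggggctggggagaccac

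Counted from the start site, the repeat covers bases -67 to -53 in Abca1 and -182 to -168 in Srebf1, and the Ch25h element covers -61 to -54. Other motifs were searched on both strands of the same promoters. The interferon-stimulated response element core (TTTC and TTTC with any 2 bases between, 3.44% of promoters) was found in the promoters of 0 of the 6 genes. The same held for the STAT element TTCNNNGAA (8.30%) and a sterol regulatory element (exact form, 0.0913%). It also held for the single receptor unit AGGTCA (16.3%, part of the textbook repeat). Sequence outside these stretches of 300 bases was not searched. The E-box CACGTG (7.15% of promoters) was found in Abca1, and a loose NF-kappaB form (GGG, TT and CC, with any 2 bases after GGG and any 1 after TT; 4.79%) before another start site of Srebf1.

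Depth was 17281425 to 21976175 reads per library, recovered from the deposited FPKM (fragments per kilobase of transcript, scaled to the size of the library). Nanoparticle library 1 stood apart: across 10682 tested genes, which are not independent replicates, its log2(FPKM + 1) values correlated at 0.9423 and 0.9282 with nanoparticle libraries 2 and 3, against 0.9895 between those and 0.9926 to 0.9938 among the vehicle libraries. Results that rest on it are given with and without it. The deposited values carry a scaling between libraries that puts the median log2 change of all genes near 0. With libraries scaled by recovered read totals that median was -0.29, and with libraries scaled to the same sum of FPKM it was -0.39, so directions are relative to the deposited scaling.

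All 9 genes were protein coding and were expressed above the filter of 1 FPKM in at least 3 libraries. By limma's moderated test with Benjamini-Hochberg adjustment over all genes, 5 of the 9 differed at an adjusted p under 0.05. Of these, 3 were higher with nanoparticles (Ch25h, Abca1 and Nr1h3) and 2 were lower (Scd2 and Abcg1). Among all tested genes 33.2% were called, 17.0% higher and 16.2% lower. That split of 1817 higher and 1733 lower genes became 1096 and 3695 with scaling by recovered read totals and 863 and 4420 with the same sum of FPKM. The groups did not overlap in 7 of the 9 genes, where 52.1% of all tested genes did not overlap. The log2 changes of the 9 genes spanned -2.36 to 2.87. Their median, 0.22, was the value of Apoe, which was not called (limma adjusted p = 0.772). The median of all genes was -0.0010. The 9 genes thus did not move as a block, and the 2 efflux pumps went in opposite directions. In bulk RNA, fewer cells of a type and less RNA per cell cannot be told apart.

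**Figure D1:**
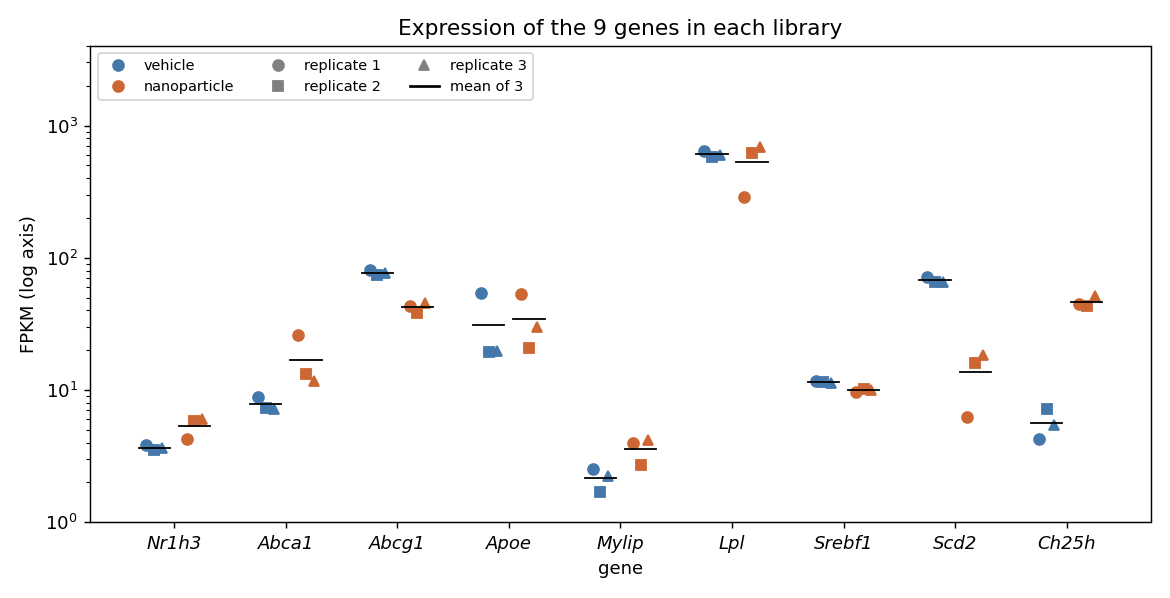
FPKM of the 9 genes (log axis) in each of the 3 vehicle and 3 nanoparticle libraries, with marker shapes for the replicate number and a line at the mean of 3. Ch25h at 43.3 to 51.5 FPKM lies far above its vehicle values of 4.24 to 7.21, Scd2 and Abcg1 lie below theirs, and Apoe is highest in replicate 1 of both groups.

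Nr1h3 (ENSMUSG00000002108, chromosome 2, 91184061 to 91202834, minus strand) was a low transcript. It stood at 3.83, 3.49 and 3.66 FPKM in vehicle libraries 1 to 3 and at 4.26, 5.86 and 6.05 FPKM in nanoparticle libraries 1 to 3. Every nanoparticle library was above every vehicle library, with library 1 the closest. On the log2 scale the rise was 0.44 ± 0.137 (SE, n = 3 per group; limma, adjusted p = 0.0493), on 174 to 293 reads per library. This call lay at the threshold and held in 2 of 13 alternative settings. It was lost without vehicle library 1, 2 or 3 (adjusted p = 0.1248, 0.1621 and 0.1465) or nanoparticle library 2 or 3 (0.1383 and 0.1163), and without nanoparticle library 1 the log2 change was 0.58 (adjusted p = 5.7e-04). Scaled by recovered read totals it was 0.16 (adjusted p = 0.337), and with the same sum of FPKM 0.06 (adjusted p = 0.669).

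The other receptor genes of the LXR complex went both ways. Nr1h2, which encodes the more widely expressed LXR beta, was the more abundant receptor at a mean of 19.2 ± 0.919 FPKM in the vehicle and 26.5 ± 1.76 FPKM in the nanoparticle libraries (SD over 3), and it rose (log2 change 0.44, limma adjusted p = 0.0163). Within a library Nr1h3 was at 0.191 ± 0.00960 of the Nr1h2 level in vehicle and 0.203 ± 0.0307 with nanoparticles (SD, n = 3 each, exact permutation test, two-sided, p = 0.6, adjusted p = 0.60 over 6 ratios). Rxra, the retinoid X receptor alpha with which both LXRs pair, fell from 17.9 ± 0.287 to 8.02 ± 0.655 FPKM (SD over 3), a log2 change of -1.07 with a limma adjusted p = 5.4e-04. Its 3 nanoparticle libraries, at 7.56 to 8.77 FPKM, were all far below the vehicle range of 17.6 to 18.1 FPKM.

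Among 7 tested genes of LXR and its cofactors, 2 were higher and 2 lower, against 17.0% and 16.2% of all tested genes. The other 3 were not past the threshold, and the median log2 change of the 7 was -0.51. Ncoa5, a nuclear receptor coactivator, was higher (log2 change 0.49, limma adjusted p = 0.0198). Rxrb (log2 change 0.05) and the corepressor gene Ncor1 (-0.52) were not past the threshold (limma adjusted p = 0.761 and 0.194). The calls of Nr1h2 and Ncoa5 were lost without any 1 of the vehicle libraries or nanoparticle library 2 (adjusted p = 0.058 to 0.0937 and 0.0575 to 0.0953). They were also lost when libraries were scaled by recovered read totals (adjusted p = 0.376 and 0.258), and scaled to the same sum of FPKM the log2 change of Nr1h2 was -0.0063.

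Abca1 (ENSMUSG00000015243, chromosome 4, 53030787 to 53159895, minus strand), the pump that loads cholesterol onto lipid-poor apolipoprotein A-I, was at 8.82, 7.35 and 7.20 FPKM in vehicle libraries 1 to 3. With nanoparticles it was at 26.1, 13.3 and 11.7 FPKM. Library 1 held 2.09 times the mean of nanoparticle libraries 2 and 3, and all 3 lay above the vehicle range. The rise on the log2 scale was 0.95 ± 0.290 (SE; limma, adjusted p = 0.0470), and 0.62 without nanoparticle library 1 (adjusted p = 0.0021). The call held in 7 of 14 alternatives and was lost without vehicle library 1, 2 or 3 (adjusted p = 0.1003, 0.1380 and 0.1412) or nanoparticle library 2 (0.0735). Scaled by recovered read totals the log2 change was 0.64 (adjusted p = 0.1276), and with the same sum of FPKM 0.53 (adjusted p = 0.242).

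Abcg1 (ENSMUSG00000024030, chromosome 17, 31057675 to 31117988, plus strand), which passes cholesterol to mature HDL particles, went the other way. Its values were 81.0, 74.3 and 76.2 FPKM in vehicle libraries 1 to 3 and 43.1, 38.5 and 45.7 FPKM in nanoparticle libraries 1 to 3. The groups were far apart, and nanoparticle library 1 lay between the other 2. Abcg1 fell by 0.85 on the log2 scale (SE 0.111, limma adjusted p = 0.0021). All 14 alternatives kept this call and its direction, with log2 changes from -1.31 to -0.78.

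The balance between both pumps can be read within each library, where library scaling cancels. Abcg1 was at 9.17, 10.1 and 10.6 times the FPKM of Abca1 in vehicle libraries 1 to 3 and at 1.65, 2.91 and 3.91 times in nanoparticle libraries 1 to 3. The mean ratio was 9.96 ± 0.720 in vehicle and 2.82 ± 1.13 with nanoparticles (SD, n = 3 each), which is 3.53-fold lower. The groups did not overlap (exact permutation test, two-sided, p = 0.1, the smallest that 3 against 3 allows; adjusted p = 0.12 over 6 ratios, chosen with the values known). Abcg1 thus remained the more abundant transcript per length in all 6 libraries, by a smaller margin with nanoparticles.

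**Figure D2:**
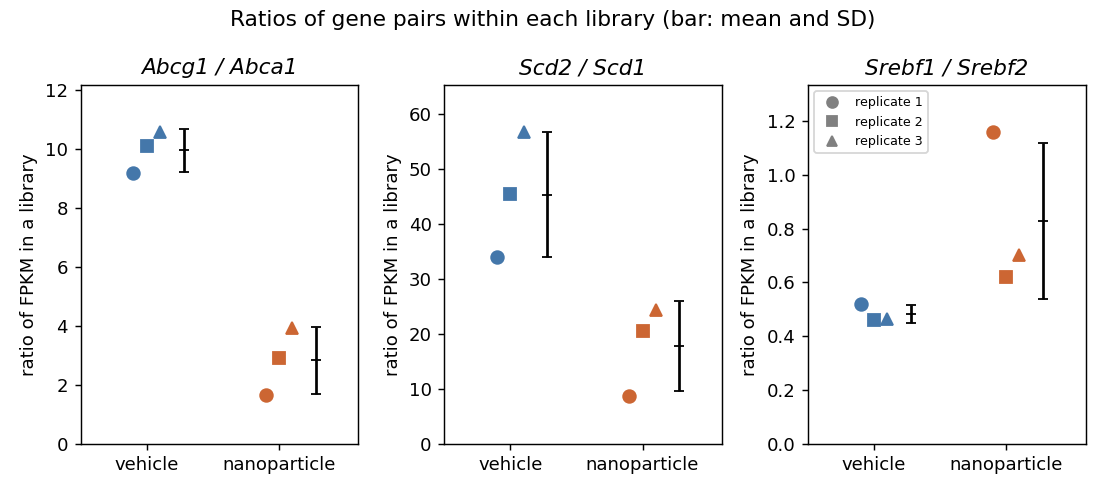
Ratio of the FPKM of 2 genes within each library, for Abcg1 over Abca1, Scd2 over Scd1 and Srebf1 over Srebf2, with bars at the mean and SD of 3 libraries per group. The Abcg1 to Abca1 ratio falls from 9.17 to 10.6 in vehicle to 1.65 to 3.91 with nanoparticles, and the Srebf1 to Srebf2 ratio of nanoparticle library 1, at 1.16, stands above the others.

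Apoe (ENSMUSG00000002985, chromosome 7, 19696109 to 19699188, minus strand) varied more within the groups than between them. It was at 54.1, 19.3 and 19.7 FPKM in vehicle libraries 1 to 3 and at 53.0, 20.7 and 30.1 FPKM in nanoparticle libraries 1 to 3. The libraries numbered 1 were highest in both groups, and the groups overlapped. Its log2 change was 0.22 with a 95% interval of -0.98 to 1.41 (limma adjusted p = 0.772), so a change of more than 2-fold upward lies within the interval. Its sign turned in several alternatives, for example to -0.14 without nanoparticle library 1, -0.03 without vehicle library 2 and -0.02 without vehicle library 3.

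Vehicle library 1 had 2306 reads of Apoe, and vehicle libraries 2 and 3 had 820 and 879, at similar depth. On the log2(FPKM + 1) scale Apoe in vehicle library 1 was 1.43 above the mean of the other vehicle libraries. Of 10682 tested genes, 6, Apoe included, lay at least that far above in this library, while 25 lay more than 1 above. Pltp, which encodes the phospholipid transfer protein and is another LXR target, had a related pattern, with 30.6, 19.9 and 19.4 FPKM in vehicle libraries 1 to 3 and 30.3, 16.0 and 15.1 FPKM in nanoparticle libraries 1 to 3. Among the 18 tested members and other LXR targets, 6 (33.3%) were highest in library 1 of both groups, namely Abca1, Apoe, Pltp, Mertk, Smpdl3a and Acaca, against 15.8% of all tested genes. Among the 9 genes alone the count was 2 (22.2%), nearer to that share. These counts were made after the values were seen. Summed macrophage markers were 1259 FPKM in vehicle library 1 and 1148 and 1108 FPKM in vehicle libraries 2 and 3, and 1204, 993 and 1045 FPKM in nanoparticle libraries 1 to 3. Their part in the Apoe values was not tested.

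Mylip (ENSMUSG00000038175, chromosome 13, 45389742 to 45412022, plus strand) was the lowest of the 9 genes. It was at 2.53, 1.70 and 2.24 FPKM in vehicle libraries 1 to 3 and at 3.94, 2.73 and 4.16 FPKM in nanoparticle libraries 1 to 3. The groups did not overlap, though vehicle library 1 and nanoparticle library 2 were close. The log2 change of 0.54 (SE 0.169, limma adjusted p = 0.0518) fell just short of the threshold. Without nanoparticle library 1 or 2 the gene passed (log2 change 0.48, adjusted p = 0.0456, and 0.69, adjusted p = 0.0275). Without vehicle library 2 the log2 change was 0.43 (adjusted p = 0.172), with scaling by recovered read totals 0.29 (0.203) and with the same sum of FPKM 0.20 (0.396). Its 109 to 259 reads per library limit the precision.

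Lpl (ENSMUSG00000015568, chromosome 8, 68880491 to 68907448, plus strand) was by far the most abundant of the 9 genes and took 0.278% to 0.763% of all recovered reads. It was at 647, 582 and 598 FPKM in vehicle libraries 1 to 3 and at 289.6, 618 and 689 FPKM in nanoparticle libraries 1 to 3. Nanoparticle library 1 alone was low, 2.26-fold below the mean of nanoparticle libraries 2 and 3, while those lay within or above the vehicle range. Lpl had a log2 change of -0.29 with a 95% interval of -1.10 to 0.53 (limma adjusted p = 0.556), and 0.10 without nanoparticle library 1 (adjusted p = 0.258). Summed dendritic cell markers were also lowest in that library, at 3063 FPKM against 5393 to 6848 FPKM in the other 5. Most of this sum was Cd74, at 2270 FPKM in that library and 3902 to 5273 FPKM in the others. Itgax and H2-Ab1 were lowest there too, while Irf4 (44.7 FPKM), Xcr1 (2.21 FPKM) and Flt3 (0.0793 FPKM) of the same list were highest there. The part of these markers in the Lpl values was not tested.

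Srebf1 (ENSMUSG00000020538, chromosome 11, 60199089 to 60222581, minus strand) was the steadiest of the 9. Its values were 11.8, 11.6 and 11.3 FPKM in vehicle libraries 1 to 3 and 9.73, 10.2 and 10.0 FPKM in nanoparticle libraries 1 to 3. All nanoparticle libraries were a little lower, including library 1. The log2 change was -0.19 with a 95% interval of -0.40 to 0.01 (limma adjusted p = 0.135), and it passed without nanoparticle library 1 (-0.17, adjusted p = 0.0364) and with scaling by recovered read totals (-0.51, adjusted p = 0.0044). The table gives 1 value per gene, so transcripts from the 3 listed start sites are not separated. Rai1 overlaps Srebf1 on the opposite strand at 1.80 to 4.19 FPKM, and reads of the 2 cannot be told apart if strand was not used.

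Srebf1 can be set beside Srebf2, which encodes SREBP-2, the activator of cholesterol synthesis. Srebf2 fell from 24.0 ± 1.27 to 13.0 ± 4.16 FPKM (SD over 3; limma log2 change -0.88, adjusted p = 0.0300). This call was lost without vehicle library 1, 2 or 3 (adjusted p = 0.0827, 0.103 and 0.0988). The log2 change of Srebf2 was -0.62 without nanoparticle library 1 (limma adjusted p = 7.1e-04). The ratio of Srebf1 to Srebf2 was 0.521, 0.461 and 0.463 in vehicle libraries 1 to 3 and 1.16, 0.622 and 0.701 in nanoparticle libraries 1 to 3. Each nanoparticle library exceeded each vehicle library (exact permutation test, two-sided, p = 0.1, adjusted p = 0.12 over 6 ratios).

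Scd2 (ENSMUSG00000025203, chromosome 19, 44293674 to 44306864, plus strand), a desaturase that makes monounsaturated fatty acids, had the strongest decrease of the 9. It stood at 71.4, 65.8 and 65.8 FPKM in vehicle libraries 1 to 3 and at 6.24, 16.1 and 18.5 FPKM in nanoparticle libraries 1 to 3. All 3 nanoparticle libraries were far below the vehicle range, and library 1 was lowest. The mean fell 4.98-fold, from 67.7 ± 3.24 to 13.6 ± 6.49 FPKM (SD, n = 3 each). The log2 change was -2.36 (SE 0.368, limma adjusted p = 0.0041) and -1.91 without nanoparticle library 1, and the call held in all 14 alternatives.

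Scd1, the related desaturase that is best known in liver and fat, was far scarcer in these cells, at 2.11, 1.45 and 1.16 FPKM in vehicle libraries 1 to 3 and 0.722, 0.787 and 0.762 FPKM in nanoparticle libraries 1 to 3. Its log2 change was -0.53 (limma adjusted p = 0.0367), a call lost without vehicle library 1 or 2 (adjusted p = 0.0887 and 0.0981) or nanoparticle library 2 or 3 (0.0877 and 0.0794). Scd1 reached 1 FPKM in the vehicle libraries only, so it passed the filter through that group alone. The ratio of Scd2 to Scd1 was 45.4 ± 11.5 in vehicle and 17.8 ± 8.14 with nanoparticles (SD, n = 3 each, exact permutation test, two-sided, p = 0.1, adjusted p = 0.12 over 6 ratios).

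Ch25h (ENSMUSG00000050370, chromosome 19, 34473778 to 34475164, minus strand) had the strongest increase of the 9. It was at 4.24, 7.21 and 5.43 FPKM in vehicle libraries 1 to 3 and at 45.1, 43.3 and 51.5 FPKM in nanoparticle libraries 1 to 3. The nanoparticle libraries were close together, library 1 among them, and all were far above the vehicle range. The mean rose 8.29-fold, from 5.63 ± 1.50 to 46.6 ± 4.30 FPKM (SD, n = 3 each), with 114 to 193 reads per vehicle library and 967 to 1339 reads per nanoparticle library. The log2 change was 2.87 (SE 0.181, limma adjusted p = 1.6e-04) and stayed between 2.44 and 3.08 in the 14 alternatives. The opposite-strand transcript Gm26902, which the annotation lists as a bidirectional promoter transcript, was at 0.0388 to 0.0818 FPKM in vehicle and 0.277 to 1.04 FPKM with nanoparticles.

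In vehicle Ch25h was at 0.0735 ± 0.0224 of the Abcg1 level, and with nanoparticles the pair was near parity at 1.10 ± 0.0454 (SD, n = 3 each, exact permutation test, two-sided, p = 0.1, adjusted p = 0.12 over 6 ratios). The ratio of Abca1 to Lpl, also among the 6, was 0.0120 to 0.0136 in vehicle and 0.0170 to 0.0900 with nanoparticles, with its highest value in library 1 (same p).

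**Figure D3:**
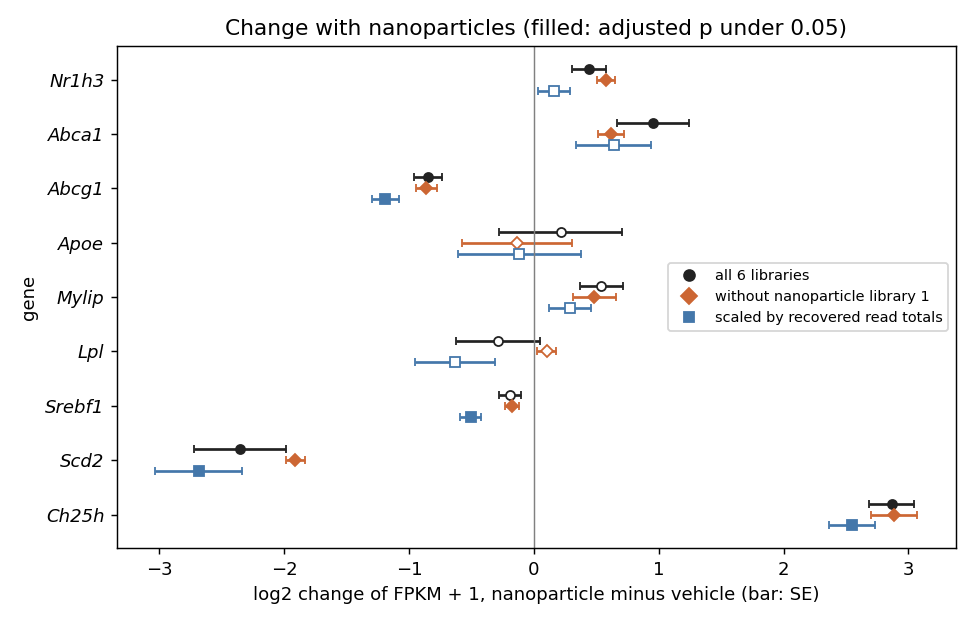
Log2 change of FPKM + 1 (nanoparticle minus vehicle, bars: SE) for the 9 genes with all 6 libraries, without nanoparticle library 1, and with libraries scaled by recovered read totals; filled symbols have an adjusted p under 0.05. Ch25h at 2.87 and Scd2 at -2.36 stand apart, Abcg1 is lower in all 3 versions, and Apoe and Lpl straddle 0.

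Of the other oxysterol genes, 5 of 9 were tested. Of these 5, 0 were higher and 1 was lower, against 17.0% and 16.2% of all tested genes. Their median log2 change was -0.39. All 5 log2 changes were below 0, so limma's unadjusted p gave 0 higher as well. Cyp27a1, the mitochondrial enzyme that makes 27-hydroxycholesterol, fell from 1.87, 1.93 and 2.58 FPKM in vehicle libraries 1 to 3 to 0.113, 0.946 and 0.716 FPKM in nanoparticle libraries 1 to 3 (log2 change -1.01, limma adjusted p = 0.0167). The call was lost without vehicle library 1, 2 or 3 (adjusted p = 0.0501, 0.0529 and 0.0688), and with a pseudocount of 0.1 (log2 change -1.96, adjusted p = 0.0505), and nanoparticle library 1 rests on 4 reads. The log2 change of Cyp27a1 was -0.77 without nanoparticle library 1 (limma adjusted p = 0.0024). Cyp27a1 also passed the filter of 1 FPKM through the vehicle libraries alone. Gpr183, the receptor EBI2 that guides immune cells along oxysterols made from the Ch25h product, was at 5.55 ± 0.735 FPKM in vehicle and at 0.445, 4.54 and 3.42 FPKM in nanoparticle libraries 1 to 3 (limma adjusted p = 0.172). Cyp7b1, Cyp46a1, Hsd3b7 and Sult2b1 were below the filter.

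Among 9 tested genes of a wider list of LXR targets, 1 was higher and 4 were lower, against 17.0% and 16.2% of all tested genes. The other 4 were not past the threshold, and the median log2 change of the 9 was -0.26. The decreases were in fatty acid genes. Fasn, the fatty acid synthase, fell from 16.8 ± 0.403 to 3.34 ± 0.568 FPKM (SD over 3; limma log2 change -2.04, adjusted p = 1.4e-04). Elovl5, which lengthens polyunsaturated fatty acids, fell from 30.7 ± 1.81 to 11.9 ± 1.06 FPKM (limma adjusted p = 4.0e-04), and Acaca, the acetyl-CoA carboxylase, had a log2 change of -0.68 (adjusted p = 0.0050). Arl4c, a small GTPase gene, was the one increase, at 24.4, 23.7 and 25.8 FPKM in vehicle libraries 1 to 3 and 65.1, 37.6 and 36.0 FPKM in nanoparticle libraries 1 to 3 (log2 change 0.83, limma adjusted p = 0.0364). Its call was lost without any 1 of the vehicle libraries or nanoparticle library 2 (adjusted p = 0.0545 to 0.119). It was also lost with scaling by recovered read totals (log2 change 0.49, adjusted p = 0.146) and with the same sum of FPKM (0.37, adjusted p = 0.319). The log2 change of Arl4c was 0.56 without nanoparticle library 1 (limma adjusted p = 3.0e-04). Mertk (log2 change -0.25), Lpcat3 (-0.26), Pltp (-0.22) and Smpdl3a (0.13) did not pass, with limma adjusted p of 0.367, 0.122, 0.626 and 0.548.

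Storage and lysosomal export genes split evenly, with 3 of 11 higher and 3 lower, against 17.0% and 16.2% of all tested genes. Their median log2 change was -0.17. Npc2, the lysosomal protein that hands cholesterol to NPC1, rose from 118 ± 4.01 to 366 ± 55.3 FPKM (SD over 3; limma log2 change 1.62, adjusted p = 6.0e-04), whereas Npc1 itself was at 15.1 ± 0.320 and 11.8 ± 5.52 FPKM (adjusted p = 0.303). Plin2, which coats lipid droplets, and Stard3, a sterol transporter of late endosomes, were higher at log2 changes of 0.84 and 0.86 (adjusted p = 0.0094 and 0.0013). Nceh1, a cholesterol ester hydrolase, fell from 38.5 ± 0.752 to 13.0 ± 1.16 FPKM (adjusted p = 2.1e-04). Scarb1, the HDL receptor SR-BI, and Lipa, the lysosomal acid lipase, were lower at log2 changes of -0.93 and -0.73 (adjusted p = 7.5e-04 and 0.0403). The Lipa call was lost without any 1 of the vehicle libraries or nanoparticle library 3 (adjusted p = 0.0618 to 0.143), and the Plin2 call without vehicle library 2 or 3 (0.0508 and 0.0513). Plin2 was at 0.50 (adjusted p = 0.0535) with scaling by recovered read totals and at 0.37 (adjusted p = 0.183) with the same sum of FPKM. Without nanoparticle library 1 the log2 changes of Lipa and Plin2 were -0.52 and 0.68 (limma adjusted p = 0.0014 and 1.4e-04).

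Of 22 tested genes of SREBP-2 regulation and cholesterol synthesis, 12 were lower and 1 was higher, against 16.2% and 17.0% of all tested genes. The other 9 were not past the threshold, and the median log2 change of the 22 was -0.49. Dhcr7, which acts in the last steps of synthesis, fell from 6.93 ± 0.475 to 1.70 ± 0.131 FPKM (SD over 3; limma, adjusted p = 1.6e-04). Stard4, a sterol carrier, and Sqle, the squalene epoxidase, were lower at log2 changes of -1.30 and -0.85 (adjusted p = 0.0010 and 0.0030). Insig2, which holds SREBPs in the endoplasmic reticulum, was the single higher gene (0.52, adjusted p = 0.0411), a call lost without any 1 of the vehicle libraries or nanoparticle library 3 (adjusted p = 0.0508 to 0.139). Insig2 was at 0.21 (adjusted p = 0.324) with scaling by recovered read totals and at 0.10 (adjusted p = 0.701) with the same sum of FPKM. It was at 0.37 without nanoparticle library 1 (limma adjusted p = 0.0027). Hmgcs1 and Insig1 were not past the threshold (log2 change -0.43 and -0.0032, adjusted p = 0.278 and 0.986). With no filter on low values the calls of Nr1h3, Abca1, Arl4c, Scd1, Lipa, Insig2 and Srebf2 were lost (adjusted p = 0.0665 to 0.102). Over all 5 lists 29 genes were called, where 33.2% of all tested genes were. Leaving out vehicle library 1, 2 or 3 gave 16, 14 and 15, and leaving out nanoparticle library 1 gave 43, where 64.8% of all tested genes were called.

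**Figure D4:**
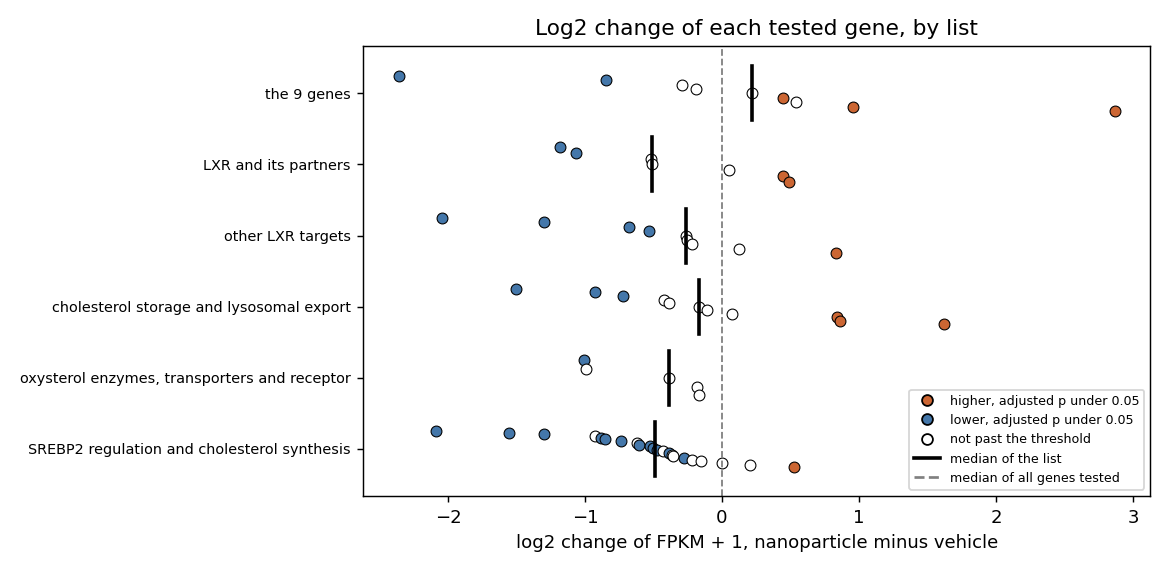
Log2 change of FPKM + 1 (nanoparticle minus vehicle) of each tested gene, one row per list, with the list median as a black bar and the median of all tested genes as a dashed line; colour marks the direction of genes with an adjusted p under 0.05. The 9 genes run from -2.36 to 2.87. The list of SREBP-2 regulation and cholesterol synthesis has 12 of 22 genes lower (16.2% of all tested genes) and a median of -0.49.

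Per unit of length, the order of the 9 genes in vehicle was Lpl, Abcg1, Scd2, Apoe, Srebf1, Abca1, Ch25h, Nr1h3 and Mylip. The ranges of most neighbours did not overlap; those of Abca1 and Ch25h met at 7.20 and 7.21 FPKM. With nanoparticles the order was Lpl, Ch25h, Abcg1, Apoe, Abca1, Scd2, Srebf1, Nr1h3 and Mylip. There Ch25h (43.3 to 51.5 FPKM), Abcg1 (38.5 to 45.7 FPKM) and Apoe (20.7 to 53.0 FPKM) overlapped, as did Apoe with Abca1, Abca1 with Scd2 and Scd2 with Srebf1. Ch25h thus moved from the seventh place to the second, and Scd2 from the third to the sixth.

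Likeness to other genes was measured as the distance between log2(FPKM + 1) profiles over the 6 libraries, each centred on its mean. Nearest to Abca1 was Ccnd2 (distance 0.153), at 20.3 to 21.7 FPKM in vehicle and 68.6, 35.0 and 31.6 FPKM in nanoparticle libraries 1 to 3, and next Slco4a1 (0.184). Nearest to Lpl was Trem2 (0.113), with 36.1 FPKM in nanoparticle library 1 and 73.04 to 81.7 FPKM in the other 5 libraries, followed by Hagh (0.135). Scd2 was closest to Daglb (0.192) and Plk1 (0.251), and Ch25h to Serf1 (0.222) and Sdc4 (0.505). For Abcg1 these were Kifc5b (0.0692) and Fgd4 (0.108), for Nr1h3 Tpd52l2 (0.0731) and Asna1 (0.0831), for Srebf1 Rps6kb1 (0.0486) and Ergic1 (0.0670), and for Mylip Rdh14 (0.216) and Gm12606 (0.238). Apoe had no close neighbour: the nearest were Gm15122 (0.719) and Mir29a (0.820).

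Markers of the labelled cell type and of others were read beside these values. Of 10 dendritic cell markers 8 were tested, 0 higher and 4 lower, against 17.0% and 16.2% of all tested genes. The lower ones were Cd209a (5.69 ± 0.523 FPKM in vehicle, 0.0254 ± 0.0441 FPKM with nanoparticles), Clec10a (6.92 ± 1.12 and 0.786 ± 0.267 FPKM), Clec9a (6.59 ± 0.226 and 3.08 ± 1.55 FPKM) and Zbtb46 (3.97 ± 0.268 and 2.30 ± 0.521 FPKM; SD over 3). By limma the adjusted p were 3.7e-05, 3.0e-04, 0.0414 and 0.0191. Cd209a passed the filter of 1 FPKM through the vehicle libraries alone. The Clec9a and Zbtb46 calls were lost without any 1 of the vehicle libraries (adjusted p = 0.110 to 0.122 and 0.0559 to 0.0813) and with no filter on low values (0.0945 and 0.0508), and the Clec9a call also without nanoparticle library 2 (0.0904) and with a pseudocount of 0.1 (0.0529). The abundant Itgax (CD11c, 449 ± 7.16 and 340 ± 80.6 FPKM), Cd74 (4116 ± 189.8 and 4111 ± 1613 FPKM) and H2-Ab1 (1002 ± 28.2 and 905 ± 359.7 FPKM) were not past the threshold (limma adjusted p = 0.163, 0.865 and 0.628), nor was Irf4 (0.896). At an unadjusted p under 0.05 limma also gave 0 higher of the 8 tested. Flt3 and Xcr1 did not pass the filter, and Flt3 was at most at 0.0793 FPKM in any library. Xcr1 was at 0.0902, 0.181 and 0.161 FPKM in vehicle libraries 1 to 3, on 8 to 16 reads. In nanoparticle libraries 1 to 3 it was higher, at 2.21, 0.828 and 0.711 FPKM, on 61 to 161 reads. Of 11 macrophage markers 9 were tested, 3 higher and 5 lower: Adgre1 (F4/80) rose from 66.1 ± 2.81 to 183 ± 80.3 FPKM, and C1qb fell from 283 ± 37.0 to 94.04 ± 29.4 FPKM (SD, n = 3 each, limma adjusted p = 0.0123 and 0.0039). The Adgre1 call was lost without vehicle library 1 or 3 (adjusted p = 0.0534 and 0.05002) and with the same sum of FPKM (log2 change 0.91, adjusted p = 0.0682, against 1.37). Like Abca1, Adgre1 was highest in nanoparticle library 1, at 276 FPKM against 141 and 132 FPKM in libraries 2 and 3. Without nanoparticle library 1 the log2 change of Adgre1 was 1.04 (limma adjusted p = 2.2e-05). Macrophage genes were thus abundant in both groups and moved both ways. Summed neutrophil markers were 35.1 to 39.8 FPKM in vehicle and 50.8 to 125 FPKM with nanoparticles, mostly from S100a8. Summed mast cell and basophil markers were 3.73 to 5.78 and 1.99 to 4.11 FPKM. Markers of B and T cells summed to at most 0.349 FPKM in any library, and the 2 adipocyte markers analysed, Plin1 and Adig, to at most 0.149 FPKM. Stromal cell markers summed to 0, 0.0639 and 0.0426 FPKM in vehicle libraries 1 to 3. In nanoparticle libraries 1 to 3 they were higher, at 3.69, 1.34 and 0.923 FPKM, mostly from Dcn and Pdgfrb. The part of other cell types in the changes of the 9 genes was not tested.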

How the data were processed

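RNA sequencing libraries of 3 vehicle and 3 nanoparticle samples were grouped by their titles. The 2 tables hold 140388 identical values. No header or label states what they are; their size and steps led to reading these values, as deposited, as FPKM. The submitters' processing notes name CASAVA, STAR 2.5, HTSeq, edgeR 3.16.5, DESeq2 and the mouse build mm10 (GRCm38), with no roles; strand is not given in the sources used here. With GENCODE M21 exon lengths, 95.7% to 96.1% of values above 0 became whole reads (within 0.01), and the library scales matched median-of-ratios size factors to 0.0144%. For Abcg1, Scd2 and Ch25h a shorter length than annotated gave whole reads.

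The 10682 genes that reached 1 FPKM in 3 or more libraries were tested with limma 3.58.1 (R 4.3.3) on log2(FPKM + 1), which understates changes of low genes, with group as the only term and a mean-variance trend. Limma-voom on the recovered reads, an alternative, called 3586 genes. The procedure was tested on simulated data in which all libraries had the same small replicate spread, modelled on the vehicle libraries. No simulated library stood apart as nanoparticle library 1 did, so that test does not cover the calls that rest on it. Ratios were compared with exact permutation tests (Python 3.11.15). The members and lists were chosen with earlier results of these data known. Named genes were the 9 members, up to 4 called genes per list and direction with the smallest adjusted p, and 2 nearest profiles per member; others are marked or are values beside these, and some genes of the lists are counted but not reported here by name. Alternatives covered the pseudocount, filter, scaling, trend, limma-voom, a replicate block and each library left out. Replicate pairs differed beyond sampling noise (chi-square per degree of freedom 2.89 or more); whether any share a culture or RNA is not given in the sources used here.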

Additional observations from a re-analysis of the deposited data

How the results depend on the processing

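The number of genes called was 3550, and 2141 to 6923 when 1 library was left out. Genes called higher then ran from 1114 to 3660 and lower from 1027 to 3263, against 1817 and 1733. With libraries scaled to the same sum of FPKM 863 genes were higher and 4420 lower, and scaled by recovered read totals 1096 and 3695, a shift that lies in the scaling itself. A filter of 5 FPKM left 975 lower genes, as fewer genes were tested. Of the 9 genes 5 were called, where 33.2% of all tested genes were. With no filter on low values 3 of them were called, and 3381 of all 23398 genes. With 1 library left out 3 to 7 of the 9 were called. The count of 3 came without a vehicle library, where 2141 to 2226 of 10682 genes were called. The count of 7 came without nanoparticle library 1, where 64.8% of all tested genes were called. Over the 5 pathway lists 29 genes were called, 14 to 43 with 1 library left out. Apoe changed sign without passing the threshold at -0.24 (same sum), -0.12 (read totals), -0.03, -0.02 and -0.14 (without vehicle library 2, vehicle library 3 and nanoparticle library 1), Lpl at 0.10 (without nanoparticle library 1) and Nr1h2 at -0.0063 (same sum). With 1 library left out Apoe ran from -0.14 to 0.69 and Lpl from -0.52 to 0.10. The cause was not tested. Calls of Ch25h, Scd2 and Abcg1 held in all 14 alternatives.

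Replicate numbers are shared between groups, but the labels tie them to nothing, and same-numbered libraries deviated from their group means with correlations of 0.0654, 0.1133 and -0.0577, so they were not treated as pairs. With the number as a replicate block 2785 genes, 5 of the 9 genes and 19 list genes were called; Nr1h3 then missed the threshold (adjusted p = 0.102) and Mylip passed it (0.0351). Depth limits the precision of Mylip (109 to 259 reads), Nr1h3 (174 to 293 reads) and, in vehicle, Ch25h (114 to 193 reads), and intervals from reads would cover counting error only.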
